A study of Mus musculus with 16 samples.

Results

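CD28, CTLA-4, ICOS and BTLA are receptors through which T cells are switched on or held back, and 8 genes that encode them and their ligands were followed here through mouse mammary tumours treated with an antibody against PD-1. The genes were taken by symbol: the receptors Cd28, Ctla4, Icos and Btla, the ligands Cd80 and Cd86 of CD28 and CTLA-4, the ICOS ligand Icosl, and Tnfrsf14, which encodes HVEM, the partner of BTLA. They were 8 of 47311 genes with transcripts in the tables, and 8 of 8 passed the filter on low counts. RNA was measured in 16 tumours that grew from E0771-luciferase cells, a mammary cancer line carrying a luciferase reporter, after 250000 cells in 25% matrigel were placed in mammary gland 4 of female C57BL/6J mice. All mice were aged on high-fat feed, in which fat supplied 60% of the kilocalories, between weeks 8 and 26 of life. They were injected with 200 ug of antibody into the peritoneum, first on day 3 and then at intervals of 3 days up to day 21. The antibody was anti-PD-1 for 8 mice and an IgG2a isotype control for the other 8. Every value is thus from a host on the high-fat diet, given an antibody and carrying an implanted line. Each tumour has its own animal number in the labels.

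CD28 gives a T cell that has met its antigen the second signal it needs to divide and to make cytokines. CTLA-4 binds the same ligands, CD80 and CD86, more tightly, is abundant on regulatory T cells, and limits that signal. Both ligands sit on dendritic cells, macrophages and B cells. ICOS appears after activation and binds ICOS ligand on antigen-presenting and some tissue cells. BTLA is an inhibitory receptor of lymphocytes, and its partner HVEM, a member of the TNF receptor family, is found on lymphocytes and on many other cells. In RNA of a whole tumour, fewer cells of a type and less RNA per cell cannot be told apart.

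Cd28, Ctla4 and Icos stand in a row on the plus strand of chromosome 1 in the GRCm38 build. Cd28 (ENSMUSG00000026012) spans chr1:60716800-60773359, Ctla4 (ENSMUSG00000026011) chr1:60887000-60915832 and Icos (ENSMUSG00000026009) chr1:60977927-61000320, with 113640 bases between the first pair and 62094 between the second. Each encodes, within a coding exon, a short loop that contacts the ligand. The stretch is shown because its codons are more alike between Cd28 and Ctla4 than between either of them and Icos. Capitals mark the 18 bases of the loop codons, on the plus strand, in the order Cd28 at chr1:60763269-60763298, Ctla4 at chr1:60912707-60912736 and Icos at chr1:60993977-60994006.
Cd28: gagttcATGTACCCTCCGCCTTACctagac
Ctla4: gaactcATGTACCCACCGCCATACtttgtg
Icos: tccattTTTGACCCACCTCCTTTTcaagaa
The Cd28 and Ctla4 loop codons differed at 2 of 18 bases, and the Icos codons differed from each of them at 7 of 18. Cd80 (ENSMUSG00000075122, chr16:38455561-38496335, plus strand), Cd86 (ENSMUSG00000022901, chr16:36603869-36666081, minus strand) and Btla (ENSMUSG00000052013, chr16:45224315-45257670, plus strand) lie on chromosome 16. Icosl (ENSMUSG00000000732) is at chr10:78069302-78083913 on the plus strand and Tnfrsf14 (ENSMUSG00000042333) at chr4:154921933-154928563 on the minus strand. The library kit did not keep strand. In the annotation the pseudogene Rpl18-ps1 overlaps Ctla4 and the unconfirmed gene Gm37039 overlaps Icos, both on the same strand, and they averaged 0.0157 and 0.0208 CPM.

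The tables held 59036535 to 82591064 estimated reads per tumour. IgG2a replicate 7 had the highest sums of adipocyte, red cell and macrophage markers, IgG2a replicate 3 the highest sum of skeletal muscle markers, and anti-PD-1 replicate 6 the fewest transcripts detected (38993). Each result was also computed without these 3 tumours. The 7 T cell markers (Cd3d, Cd3e, Cd3g, Cd2, Cd5, Cd6, Trac) were present and summed to 11.9 to 50.4 CPM (median 21.7) under anti-PD-1 and 8.62 to 32.7 (median 20.7) under IgG2a, with none at 0 in all tumours. The 8 macrophage and monocyte markers summed to 636 to 1679 CPM (median 1166) and 523 to 3973 (median 1136). The 7 B cell markers summed to 18.2 to 28.5 CPM (median 21.6) in treated and 18.7 to 39.2 (median 26.8) in control tumours. Most of this was Pax5, with means of 17.4 and 21.99 CPM, while Ms4a1 averaged 0.186 and 0.421. The animal numbers fall in 2 ranges that each hold both groups, a lower one with 6 tumours and an upper one with 10.

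The ligands were more abundant than the receptors. On the scale of TPM, which divides by transcript length and can be compared between genes, the median over 16 tumours was 15.7 for Tnfrsf14, 7.41 for Cd86, 4.59 for Icosl and 3.55 for Cd80. The receptors followed with 1.42 for Ctla4, 1.22 for Icos, 0.594 for Cd28 and 0.234 for Btla. Each gene exceeded the next in this order in 13 to 16 of the 16 tumours, except that Ctla4 exceeded Icos in 10, so the levels of that pair of receptors did not separate. CPM divided by the length of the main transcript, a scale chosen after seeing the data, gave the same order, but Tnfrsf14 then exceeded Cd86 in 11 tumours only and its median was 7.21 against 5.44.

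Btla, Ctla4 and Icos varied most from tumour to tumour and Icosl least. The coefficient of variation of CPM over 16 tumours was 72.4% for Btla, 58.7% for Ctla4, 58.2% for Icos and 39.6% for Cd28. For the ligands it was 46.0% for Cd86, 40.2% for Cd80, 27.9% for Tnfrsf14 and 23.6% for Icosl. Btla rested on 4 to 122 estimated reads per tumour, Ctla4 on 37 to 389, Cd28 on 75 to 323 and Icos on 81 to 704, while Cd86 had 560 to 2234. Counting error is therefore largest for Btla. The plot of the members' levels by tumour shows this spread.

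**Figure D1:**
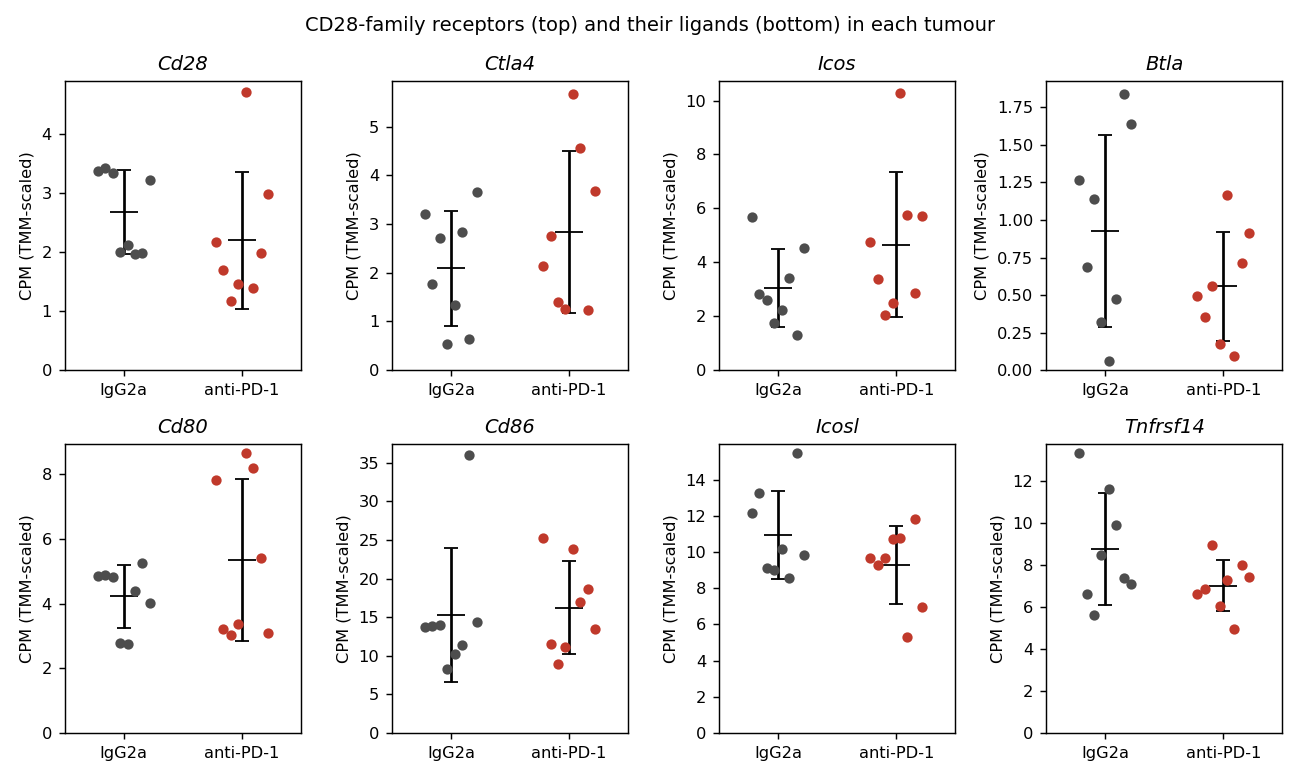
Normalised read count of each gene (y axis, CPM with TMM scaling, starting at 0) in the 8 IgG2a tumours (grey) and the 8 anti-PD-1 tumours (red); horizontal lines are the mean and bars the SD. The groups overlap for every gene, and the highest points include Icos at 10.3 CPM in an anti-PD-1 tumour and Cd86 at 36.0 CPM in an IgG2a tumour.

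The reads of Ctla4 and Icos were all placed on 1 transcript each. The 2686 estimated Ctla4 reads of the 16 tumours were given to the form of 1933 bases that encodes the membrane receptor. A second coding form, of 614 bases, skips exon 3, a stretch of 110 bases at chr1:60913219-60913328 that encodes the part crossing the membrane, and so corresponds to the soluble form. It was listed at 0 in all 16 tumours. The junctions that tell them apart are shown with the bases after the join in capitals, starting at chr1:60913219 for the membrane form and chr1:60914613 for the skipped form.
Ctla4, exon 3 kept: agatttatgtcattgATCCAGAACCATGCC
Ctla4, exon 3 skipped: agatttatgtcattgCTAAAGAAAAGAAGT
All 4202 Icos reads were given to the form of 3241 bases, whose exon 4 is joined to exon 5. A shorter form of 810 bases, which reads on past the end of exon 4, was listed at 0 in all 16 tumours. Capitals again mark the bases after that point, from chr1:60997701 for the joined form and chr1:60995609 for the one that reads on.
Icos, exon 4 joined to exon 5: agtctagacttgcagGTGTGACCTCA
Icos, exon 4 read through: agtctagacttgcagGTACAGCTCCC
A listed 0 is the quantifier's estimate, made from the few reads that reach such a junction, and gives no upper limit for the shorter forms.

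Btla and Tnfrsf14 were divided among transcripts in a way that changed from tumour to tumour. The Btla transcript of 3235 bases held reads in 11 tumours and the one of 3251 bases in 6, and IgG2a replicate 2 was the single tumour with reads on both, so the tables place nearly every tumour wholly on one form or the other. For Tnfrsf14, a short coding transcript of 394 bases held reads in 7 tumours, where it had 94.6 to 266.9 estimated reads. Over all tumours it took 13.95% of the gene's reads but 45.2% of its TPM, because a short transcript weighs more per read. Cd86 had a similar case in a non-coding transcript of 548 bases with reads in IgG2a replicate 7 and anti-PD-1 replicate 6 alone, which took 1.99% of the reads and 11.2% of the TPM. TPM levels of Tnfrsf14 and Cd86, and ratios built on them, move with these placements. The share of TPM on the main transcript differed between the groups by 2.59 percentage points for Cd28, 0.19 for Cd86, -10.4 for Btla and 3.76 for Tnfrsf14, anti-PD-1 minus IgG2a, and 0 of these 4 tests passed (exact permutation p = 0.467 to 1.0).

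**Figure D2:**
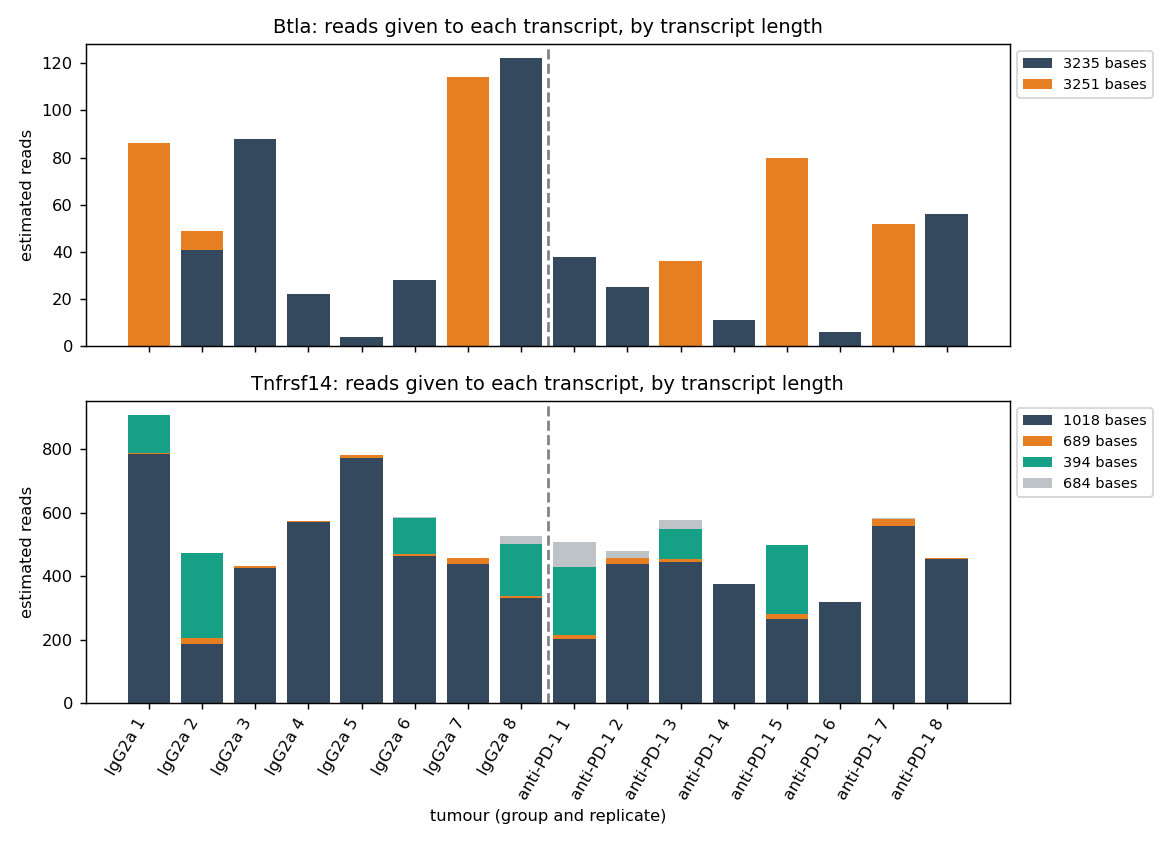
Estimated reads (y axis) placed on each transcript of Btla (top) and Tnfrsf14 (bottom) in each of the 16 tumours (x axis), stacked, with IgG2a tumours left of the dashed line. Reads sit on the Btla transcript of 3235 bases in 11 tumours and on that of 3251 bases in 6, and the Tnfrsf14 transcript of 394 bases holds reads in 7.

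The next comparison asked whether blockade of PD-1 was accompanied by other levels of these receptors and ligands in the tumour. None of the 8 genes passed the test in either direction. By edgeR's quasi-likelihood test with Benjamini-Hochberg adjustment over 16154 genes, 0 genes of any kind passed an adjusted p of 0.05 (0%), and the smallest adjusted p was 0.434. An unadjusted edgeR p under 0.05 was reached by 1836 genes (11.4%), 560 higher (3.47%) and 1276 lower (7.9%) under anti-PD-1, and by 0 of the 8. Estimates were above 0 for 4 of the 8, Ctla4, Icos, Cd80 and Cd86, against 43.1% of all genes tested. The smallest unadjusted p of the 8 were 0.106 for Tnfrsf14 and 0.107 for Icos in the same edgeR fit.

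Among the receptors, the estimates for Icos and Ctla4 were above 0 and those for Cd28 and Btla below. Icos, the receptor induced by activation, was 2.05 CPM in the lowest, 4.07 in the median and 10.3 in the highest anti-PD-1 tumour, and 1.30, 2.73 and 5.67 CPM in the IgG2a tumours. In 3 anti-PD-1 tumours it was above every IgG2a tumour, 2 IgG2a tumours were below every anti-PD-1 tumour, and the rest overlapped. The log2 fold change was 0.61 ± 0.36 (SE; 95% interval -0.15 to 1.38; edgeR adjusted p = 0.448), and 6 of 8 anti-PD-1 tumours were above the IgG2a median. The highest tumour, anti-PD-1 replicate 5, also had the highest T cell marker sum, and without it the estimate was 0.34. Without IgG2a replicate 1 it was 0.80, with an unadjusted edgeR p of 0.0404.

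Ctla4, the inhibitory receptor for CD80 and CD86, ranged from 1.24 through a median of 2.44 to 5.68 CPM under anti-PD-1 and from 0.545 through 2.24 to 3.66 CPM under IgG2a. In 3 anti-PD-1 tumours it was above every IgG2a tumour, yet the medians were close and 4 of 8 anti-PD-1 tumours were above the IgG2a median. Its log2 fold change over IgG2a was 0.44 ± 0.44 (SE; 95% interval -0.49 to 1.37; edgeR adjusted p = 0.629), and it was 0.22 without anti-PD-1 replicate 5. The lowest Ctla4 values belonged to IgG2a replicate 4, with the lowest T cell sum, and IgG2a replicate 7. The part that T cell content has in the Icos and Ctla4 estimates was not tested beyond the ratios to Cd3 genes given further on.

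Cd28, the receptor of the second signal, showed lower values in several treated tumours. It was 1.16 CPM in the lowest, 1.84 in the median and 4.71 in the highest anti-PD-1 tumour, and 1.97, 2.67 and 3.43 CPM in the IgG2a tumours. In 4 anti-PD-1 tumours Cd28 was below every IgG2a tumour, but the single highest value of all was also an anti-PD-1 tumour, replicate 5. This gave a log2 fold change of -0.29 ± 0.29 (SE; 95% interval -0.90 to 0.33; edgeR adjusted p = 0.632), with 2 of 8 anti-PD-1 tumours above the IgG2a median. Without replicate 5 it was -0.54, with an unadjusted edgeR p of 0.0469 and no gene past the adjusted threshold.

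Btla, the inhibitory partner of HVEM, was 0.0930 to 1.17 CPM under anti-PD-1 (median 0.528) and 0.0594 to 1.84 under IgG2a (median 0.913). In 3 IgG2a tumours it was above every anti-PD-1 tumour, and the lowest value of all was in IgG2a as well. The log2 fold change of -0.73 ± 0.58 (SE; 95% interval -1.95 to 0.50; edgeR adjusted p = 0.546) was the furthest from 0 of the 8 and the least precise. With limma-voom and quality weights it was 0.23, so its direction differed between the fits. Its highest value was in IgG2a replicate 7, the tumour with the highest sum of 9 lymph node and follicle markers at 48.2 CPM, against 11.7 to 35.0 under anti-PD-1. In that tumour Cxcl13, a follicle chemokine, was 26.05 CPM and Ccl21a, a lymph node chemokine, was 13.3. Without that tumour the Btla estimate was -0.51, and the part of lymph node tissue in it was not tested.

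Of the ligands, Cd80 and Cd86 had estimates above 0 and Icosl and Tnfrsf14 below. Cd80 ranged from 3.03 through a median of 4.39 to 8.65 CPM under anti-PD-1 and from 2.76 through 4.62 to 5.27 CPM under IgG2a. The treated tumours fell apart into 4 above every IgG2a tumour and 4 below the IgG2a median. For Cd80 the log2 fold change was 0.34 ± 0.27 (SE; 95% interval -0.24 to 0.92; edgeR adjusted p = 0.550), and without anti-PD-1 replicate 5 it was 0.21. Without anti-PD-1 replicate 6 it was 0.23.

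Cd86 was 8.90 to 25.2 CPM under anti-PD-1 (median 15.2) and 8.25 to 36.0 CPM under IgG2a (median 13.8), and both the lowest and the highest tumour of all were in the IgG2a group. For Cd86 the log2 fold change was 0.09 ± 0.29 (SE; 95% interval -0.52 to 0.70; edgeR adjusted p = 0.892). IgG2a replicate 7, which had the highest macrophage marker sum, set the highest value. Without it the estimate was 0.40 with an unadjusted edgeR p of 0.0816, without anti-PD-1 replicate 1 it was -0.029, and without anti-PD-1 replicate 5 it was -0.0094. The sign of the Cd86 estimate thus rested on single tumours.

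Icosl, the ligand of ICOS, was 5.32 to 11.8 CPM under anti-PD-1 (median 9.67) and 8.57 to 15.5 under IgG2a (median 10.01). Its log2 fold change was -0.24 ± 0.18 (SE; 95% interval -0.61 to 0.13; edgeR adjusted p = 0.511), with 3 of 8 anti-PD-1 tumours above the IgG2a median. Its lowest and highest tumours were 2 of those that stand apart, anti-PD-1 replicate 6 and IgG2a replicate 7, and without the 3 such tumours the estimate was -0.10.

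Tnfrsf14, the HVEM gene, was 4.95 to 8.99 CPM under anti-PD-1 (median 7.07) and 5.61 to 13.4 under IgG2a (median 7.93). In 3 IgG2a tumours it was above every anti-PD-1 tumour, and 2 of 8 anti-PD-1 tumours were above the IgG2a median. The log2 fold change was -0.32 ± 0.19 (SE; 95% interval -0.71 to 0.08; edgeR adjusted p = 0.448). It was below 0 under every alternative run, between -0.20 within the lower and -0.40 within the upper range of animal numbers. Without the 3 tumours that stand apart it was -0.38 with an unadjusted edgeR p of 0.0316, where again no gene passed the adjusted threshold.

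**Figure D3:**
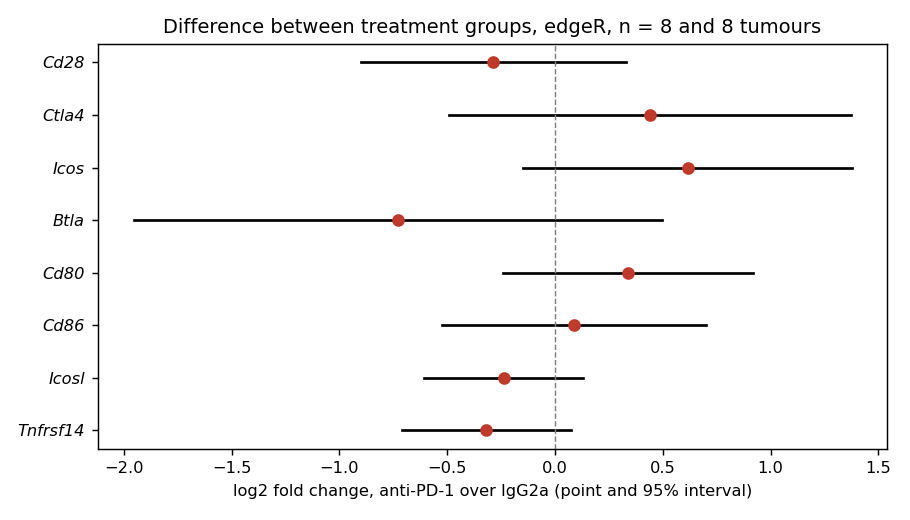
Log2 fold change of each gene, anti-PD-1 over IgG2a (x axis), with its 95% interval from the edgeR fit (bars) for all 16 tumours. The 8 intervals all include 0; Btla has the widest, from -1.95 to 0.50, and Icosl the narrowest, from -0.61 to 0.13.

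The 2 ranges of animal numbers gave different estimates for the T cell receptors, on the log2 scale. In the lower range (3 against 3) the fold change was -1.01 for Cd28, -0.30 for Ctla4 and -0.13 for Icos, and in the upper range (5 against 5) it was 0.15, 0.86 and 1.03. Cd80 was -0.049 in the lower and 0.58 in the upper range. For the other 4 genes the direction was the same in both ranges, with -0.27 and -0.22 for Icosl, 0.14 and 0.07 for Cd86, -1.14 and -0.50 for Btla, and -0.20 and -0.40 for Tnfrsf14. The difference between the ranges was not tested. What the ranges stand for is not stated in the labels.

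Ratios between receptors and ligands were then formed in each tumour from TPM, so that both genes share the tumour's library. None of 12 ratios passed after adjustment (smallest adjusted exact permutation p = 0.318). In TPM, Cd28 and Ctla4 were each below the sum of Cd80 and Cd86, Icos below Icosl and Btla below Tnfrsf14 in every tumour. Against Cd80 alone, Ctla4 was higher in anti-PD-1 replicate 8, at 2.53 against 2.48 TPM. In estimated reads Icos exceeded Icosl in anti-PD-1 replicate 6, with 371 against 343. The ratio of Cd28 to the sum of Cd80 and Cd86 had a median of 0.0660 over the 16 tumours, that of Ctla4 to the same sum 0.131, that of Icos to Icosl 0.275 and that of Btla to Tnfrsf14 0.0120. Cd80 was below Cd86 in all 16 tumours, with a median ratio of 0.469.

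The ratio of Ctla4 to Cd28, the inhibitory over the stimulatory receptor for the same ligands, showed the largest separation when formed from TPM. It was 1.501 in the lowest, 2.83 in the median and 7.66 in the highest anti-PD-1 tumour, and 0.667, 1.65 and 3.45 in the IgG2a tumours. It was above the IgG2a median in 7 of 8 anti-PD-1 tumours and above 1 in 14 of 16 tumours, the exceptions being IgG2a replicates 4 and 7. The mean log2 ratio was 1.54 ± 0.69 (SD, n = 8) in the treated tumours and 0.65 ± 0.85 (SD, n = 8) in the controls. The log2 difference was 0.90 ± 0.39 (SE), with a two-sided exact permutation p of 0.0362 over 12870 assignments, and an adjusted exact permutation p of 0.318 over the 12 ratios. It was 0.77 and 0.97 within the lower and upper ranges of animal numbers, 0.89 when formed from estimated reads, and 0.59 without the 3 tumours that stand apart, where the exact permutation p was 0.146. With a pseudocount of 1 TPM, above the Cd28 level of most tumours, it was 0.35 (exact permutation p = 0.0974).

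The ratio of Icos to Icosl had medians of 0.361 under anti-PD-1 and 0.214 under IgG2a, with 5 of 8 anti-PD-1 tumours above the IgG2a median. The log2 difference was 0.82 ± 0.45 (SE; exact permutation p = 0.0886, adjusted 0.318). It was 0.13 within the lower and 1.23 within the upper range of animal numbers and 0.40 without the 3 tumours, so its size changed with the tumours used. The ratio of Cd28 to Cd80 plus Cd86 had medians of 0.0488 and 0.0835, with 1 of 8 anti-PD-1 tumours above the IgG2a median. Its log2 difference was -0.57 ± 0.39 (SE; exact permutation p = 0.171, adjusted 0.410), and without the 3 tumours -0.63 (exact permutation p = 0.0169, adjusted 0.203). It was -0.36 without anti-PD-1 replicate 6 (exact permutation p = 0.338) and -0.84 without IgG2a replicate 7 (exact permutation p = 0.00637, adjusted 0.0765).

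Ratios that differed little between the groups were Cd80 to Cd86, with a log2 difference of 0.07 ± 0.24, Btla to Tnfrsf14, with -0.17 ± 0.65, and Ctla4 to Cd80 plus Cd86, with 0.33 ± 0.54 (SE; exact permutation p = 0.868, 0.801 and 0.604). Each of these SEs was larger than the difference itself.

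Set against T cell genes, the receptors gave values that turned on the gene chosen. Over the sum of Cd3d, Cd3e and Cd3g, components of the T cell receptor complex, the log2 difference was -0.73 for Cd28 (exact permutation p = 0.106), 0.17 for Ctla4, 0.24 for Icos and -0.86 for Btla. Over Cd3e alone, an alternative chosen after seeing the data, it was -0.19 for Cd28 (exact permutation p = 0.408), 0.71 for Ctla4 (0.108), 0.78 for Icos (0.0232, adjusted 0.217) and -0.32 for Btla. Both versions put Cd28 and Btla below 0 and Ctla4 and Icos above it over all 16 tumours. From estimated reads, Cd28 over the sum of the Cd3 genes differed by -0.72 (exact permutation p = 0.0179, adjusted 0.157). From TPM this Cd28 difference was 0.040 within the lower range of animal numbers and -1.19 within the upper (exact permutation p = 0.0238, adjusted 0.286). Over Csf1r, a macrophage receptor gene, the difference was 0.50 ± 0.37 for Cd80 and 0.43 ± 0.26 for Cd86 (SE; exact permutation p = 0.228 and 0.0749), and 0.047 and 0.13 without the 3 tumours that stand apart. Formed from estimated reads, the differences over Csf1r were 0.46 and 0.37 (exact permutation p = 0.233 and 0.0326, adjusted 0.444 and 0.157).

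**Figure D4:**
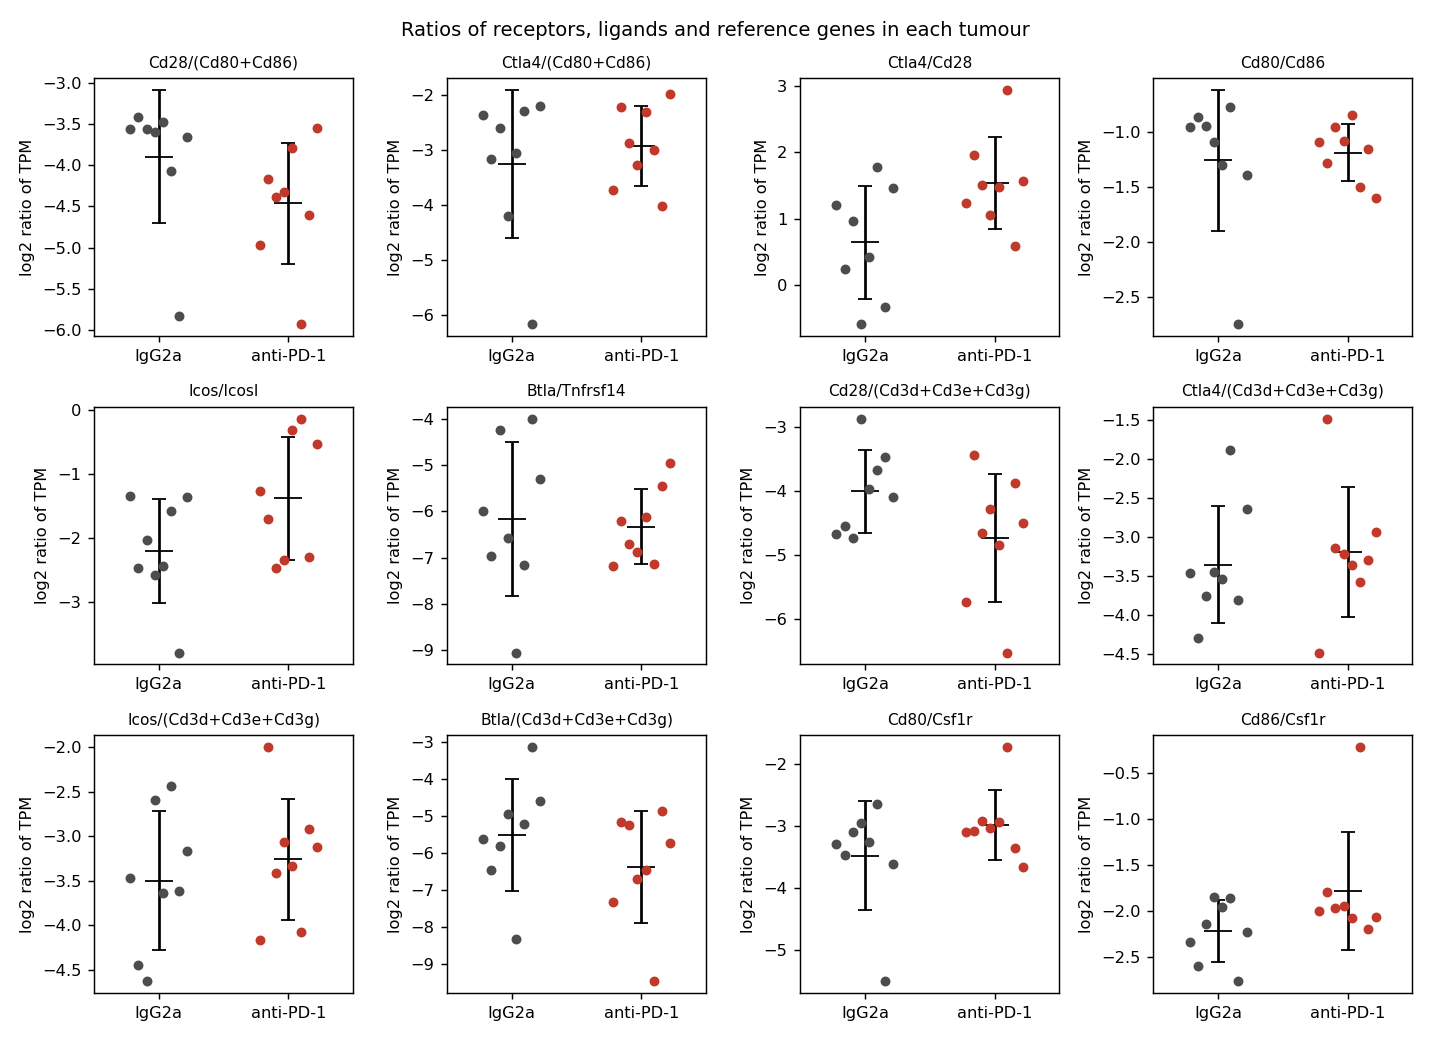
Log2 ratio of TPM (y axis, pseudocount 0.01) for 12 pairs of genes in the 8 IgG2a (grey) and 8 anti-PD-1 (red) tumours, with the mean and SD as lines. Ctla4/Cd28 lies above the IgG2a median in 7 of 8 anti-PD-1 tumours, and single low points belong to IgG2a replicate 7 in the panels for Cd80/Cd86 and Cd80/Csf1r.

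Across tumours the 2 receptors Ctla4 and Icos rose and fell together. Their log2 CPM had a Pearson r of 0.90 and a Spearman rho of 0.90 over 16 tumours (permutation p = 1e-05 each, the smallest that 100000 permutations can give, adjusted 1.3e-04 over 13 pairs). Without the 2 tumours farthest from the median of Ctla4, IgG2a replicates 4 and 7, r was 0.87. Within the 8 treated tumours r was 0.91 and within the 8 controls 0.89 (exact permutation p = 0.00171 and 0.00221), and it was 0.95 within the upper range of animal numbers and 0.67 within the lower.

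Cd28 followed the T cell gene Cd3e, with r = 0.84 and rho = 0.80 (permutation p = 1e-04 and 4.6e-04, adjusted 6.5e-04 and 0.00299), with 0.86 under anti-PD-1, 0.88 under IgG2a and 0.84 without the 2 farthest tumours. Ctla4 followed Foxp3, the regulatory T cell factor, with r = 0.72 and rho = 0.72 (permutation p = 0.00150 and 0.00225, adjusted 0.00650 and 0.00975), and r was 0.65 without the 2 farthest. Within the groups r was 0.74 in the treated tumours, which did not pass (exact permutation p = 0.0364, adjusted 0.0947), and 0.81 in the controls (exact permutation p = 0.0119, adjusted 0.0473). Each of these 3 relations was above 0 in both groups and in both ranges of animal numbers. None passed in the 6 tumours of the lower range (exact permutation p = 0.0722 to 0.314). Foxp3 is a single marker, and Ctla4 was not tested against the sum of 6 regulatory T cell markers. Most of that sum was Ikzf2, with means of 17.0 CPM in the treated and 19.6 in the control tumours. Foxp3 averaged 1.68 and 1.90 CPM, so ranks by the sum rest largely on Ikzf2. From the top, anti-PD-1 replicate 6 ranked 2 for Ctla4 but 14 for that sum, and anti-PD-1 replicate 3 ranked 11 and 1. Other tumours ranked alike, such as IgG2a replicate 8 at 4 for both and IgG2a replicate 1 at 5 for both.

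Btla and Cd28 had a weaker relation, with r = 0.59 and rho = 0.55 (permutation p = 0.0158 and 0.0281, adjusted 0.0457 and 0.0730), so the rank measure did not pass, and r was 0.67 without the 2 farthest tumours. It was 0.71 within the treated tumours and 0.47 within the controls, and 0.62 and 0.71 within the upper and lower ranges of animal numbers, where the adjusted permutation p was 0.104 to 0.654 in these 4 subsets.

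Receptors and their own ligands did not pass in any of the 6 pairs examined over 16 tumours. Pearson r was 0.30 for Cd28 with Cd80, 0.29 for Cd28 with Cd86, 0.44 for Ctla4 with Cd80, 0.12 for Ctla4 with Cd86, -0.39 for Icos with Icosl and 0.05 for Btla with Tnfrsf14 (permutation adjusted p = 0.146 to 0.868). For Btla with Tnfrsf14, r was 0.80 within the treated tumours (exact permutation p = 0.0159, adjusted 0.0517) and -0.44 within the controls (exact permutation p = 0.276, adjusted 0.432), and the difference between the groups was not tested. Cd28 and Ctla4, neighbours on the chromosome with the same ligands, had r = 0.44 (permutation p = 0.0898, adjusted 0.146), and 0.26 without the 2 farthest tumours. Cd28 and Icos had r = 0.50 (permutation p = 0.0475, adjusted 0.103) and 0.22 without the 2 farthest, but 0.76 without the 3 tumours that stand apart (adjusted 0.00871). The ligands Cd80 and Cd86 had a rho of 0.88, a pair picked after its value was seen and given as a description.

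**Figure D5:**
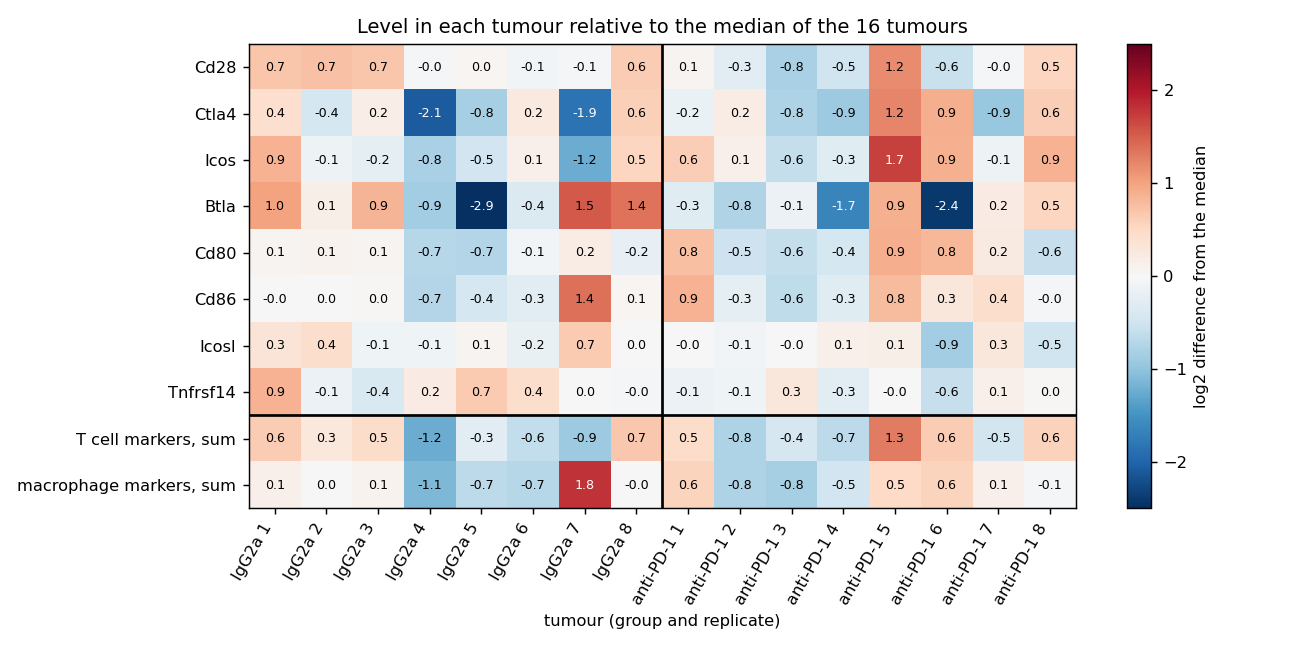
Log2 difference of each gene's level from its median over the 16 tumours (colour and printed value, red above and blue below), one column per tumour, with the summed T cell and macrophage markers in the last rows. The Ctla4 and Icos rows have the same sign in most columns, anti-PD-1 replicate 5 is above the median in 7 of the 8 genes, and IgG2a replicate 7 joins high Cd86 and Btla with low Ctla4 and Icos.

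By a rule of rank correlation over the 16 tumours, the genes most like each member were listed from 13406 searched, as a description. For the receptors these were Cd96, Zfp965 and Cd3e for Cd28 (rho 0.80 to 0.83), Cd5, Tnfrsf4 and Klrb1b for Ctla4 (0.82 to 0.89), Klrb1b, Sirpb1a and Tlr12 for Icos (0.88 to 0.91), and Fam78a, Lacc1 and Hsd17b4 for Btla (0.91 to 0.93). Cd96 and Cd5 are lymphocyte surface receptors, and Tnfrsf4 encodes the costimulatory receptor OX40. For the ligands they were Tlr2, Clec5a and Fcgr2b for Cd80 (0.90 to 0.92), which encode receptors of myeloid cells, Rbm7, Pde3b and Slc17a9 for Cd86 (0.95 to 0.96), Rtn4rl1, Mknk1 and Fam83h for Icosl (0.80 to 0.82), and Zfp740, Crebzf and Dnal4 for Tnfrsf14 (0.78 to 0.81).

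The other genes of these pathways were read from 4 lists, and 0 of their members passed the adjusted threshold. Of 10 further members of the family and HVEM partners, 9 were tested, with 8 estimates above 0 and 1 below, where 43.1% of all genes tested were above 0. The median log2 fold change of the 9 was 0.33, against -0.055 over all genes tested. Tnfsf14, which encodes LIGHT, another ligand of HVEM, was 2.27 ± 1.11 CPM (SD, n = 8) in the treated tumours and 1.43 ± 0.332 CPM (SD, n = 8) in the controls. Its log2 fold change was 0.67 ± 0.29 (SE; edgeR adjusted p = 0.434), with an unadjusted edgeR p of 0.0361 and 6 of 8 anti-PD-1 tumours above the IgG2a median. Of all genes tested, 3.47% were higher under anti-PD-1 at an unadjusted edgeR p under 0.05. Cd160, a further receptor for HVEM, was at 0.55 ± 0.35 (SE), so the HVEM partners Tnfsf14 and Cd160 lay above 0 while Btla and Tnfrsf14 themselves lay below.

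Of 24 genes for signalling and trafficking of the receptors, 23 were tested, with 12 estimates above 0, 11 below and a median of 0.00042. Of these 23, 3 had an unadjusted edgeR p under 0.05, all below 0. Over all genes tested 7.9% were lower at that level. Lrba, whose protein protects CTLA-4 from breakdown, was at -0.50 ± 0.19 (SE), above the IgG2a median in 1 of 8 anti-PD-1 tumours. Pik3r1, a PI3-kinase subunit that binds CD28, was at -0.60 ± 0.27, and Ptpn11, the phosphatase SHP2 recruited by inhibitory receptors, at -0.25 ± 0.11 (SE; edgeR adjusted p = 0.434 for each). Pik3r1 averaged 37.8 CPM in the treated and 57.4 in the control tumours, and Ptpn11 124 and 148. Cd28 averaged 2.20 and 2.68 CPM. The part of T cells in the Pik3r1 and Ptpn11 values was not tested. Of 7 HVEM signalling genes, 5 estimates were above 0 and 2 below with a median of 0.043. Of 10 outputs of CD28 and ICOS signalling in T cells, 6 were tested, with 2 above 0, 4 below and a median of -0.14. Il2, Il4, Il21 and Cd40lg were among those too low to test, Ifng was at 0.89 ± 0.48 and Maf, a factor downstream of ICOS, at -0.64 ± 0.34 (SE). Maf was 62.6 ± 17.4 CPM (SD, n = 8) in the treated and 97.6 ± 78.4 CPM (SD, n = 8) in the control tumours. Icos averaged 4.66 and 3.04 CPM. The part of T cells in the Maf values was not tested.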

How the data were processed

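The deposited tables give, for each of 16 tumours and each transcript, estimated counts of reads and the authors' TPM, with transcript lengths as other columns, per the file headers. GRCm38, edgeR and limma are named in the submitters' processing notes. Which quantifier and annotation made the tables is not given in the sources used here. Transcripts were matched by identifier to GENCODE vM21 (114200 of 115088), and their estimated counts were added up by gene and rounded. After filterByExpr (minimum count 10, minimum total 15), genes were scaled by TMM and tested with the robust quasi-likelihood test of edgeR 4.0.16 in R 4.3.3, anti-PD-1 over IgG2a, threshold adjusted p 0.05. Ratios used log2(TPM + 0.01) and two-sided exact permutation tests. Correlations used log2 CPM (prior count 2) with 100000 permutations over 16 or 10 tumours and exact enumeration over 8 or 6. Named genes were the members, the genes of the ratios and pairs, up to 4 genes of smallest p per pathway list and the 3 most alike per member. One of the 13 gene pairs, which is counted in the adjustment and in the numbers of pairs that passed, and one pathway gene are not reported here. Members and lists were chosen with earlier results of these data known. The transcript length in the tables equalled that in the annotation for 18 of 20 transcripts, the others being a Btla and an Icosl transcript. Tests were checked on simulated data. Alternatives included DESeq2 1.42.0 and limma-voom 3.58.1.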

Additional observations from a re-analysis of the deposited data

Results flagged for a closer look

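In 7 of 40 sets of 8 values examined (8 genes in CPM and 12 log2 ratios, in each group), 1 tumour lay further from its neighbour than Dixon's 95% critical value allows. For normally distributed values chance alone gives about 1 in 20. The 40 sets share genes and tumours and CPM was not log-transformed, so that rate cannot be used to judge the count of 7. Icos was 10.3 CPM in anti-PD-1 replicate 5 against 2.05 to 5.75 in the other anti-PD-1 tumours. The log2 ratios to Csf1r were high in anti-PD-1 replicate 6, at -1.72 for Cd80 against -3.67 to -2.92 in the others and at -0.22 for Cd86 against -2.20 to -1.79. In that tumour 6.31 of the 10.9 TPM of Cd86 lay on the non-coding transcript of 548 bases, from 178.6 of 1091 estimated reads. Formed from estimated reads, the highest ratio of Cd86 to Csf1r in any tumour was 0.204, against 0.859 from TPM. IgG2a replicate 7 accounted for the remaining 4. Its Cd86 was 36.0 CPM against 8.25 to 14.4 in the other IgG2a tumours. Its log2 ratio of Cd28 to Cd80 plus Cd86 was -5.83 against -4.07 to -3.41, that of Cd80 to Cd86 was -2.74 against -1.39 to -0.77, and that of Cd80 to Csf1r was -5.51 against -3.62 to -2.64. In IgG2a replicate 7, 9.65 of the 26.8 TPM of Cd86 lay on the transcript of 548 bases, from 162.7 of 2234 estimated reads. Formed from estimated reads, its Cd28 to Cd80 plus Cd86 was -4.38, against -3.00 to -2.45 in the other IgG2a tumours. Its Cd80 to Cd86 was then -2.77, against -1.88 to -1.37. The share of macrophage, adipocyte or lymph node tissue in these values was not tested.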

How the results depend on the processing

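None of the 8 genes and none of the 12 ratios passed the adjusted threshold under any alternative run. In the lower range (3 against 3) the exact permutation test cannot give a p under 0.1, so no ratio could pass there. DESeq2 called 4 of the 27933 genes it was given, none a member. They were Cxcl5, with a log2 fold change of 3.70, and Igkv8-16, Gm20671 and Gm21541, with -23.5, -23.5 and -22.4. At an unadjusted p under 0.05, 1836 genes became 1011 with limma-voom, 3421 with quality weights, 4293 without the low-count filter, 278 within the lower range of animal numbers and 1162 to 2607 with 1 tumour left out. Signs that turned for log2 fold changes were Btla at 0.23 with quality weights, Ctla4 at -0.30, Icos at -0.13 and Cd80 at -0.049 in the lower range, Cd28 at 0.15 in the upper range, and Cd86 between -0.029 and 0.40 with 1 tumour left out. For ratios, Btla to Tnfrsf14 was 0.29 with a pseudocount of 1, 0.31 in the upper range, 0.63 without the 3 tumours that stand apart and -0.58 to 0.14 with 1 left out. Ctla4 to the Cd3 genes was -0.012 with a pseudocount of 1, -0.21 in the upper range and -0.077 to 0.38 with 1 left out, and Icos to them was -0.21 in the upper range. Ctla4 to Cd80 plus Cd86 was -0.23 in the lower range, -0.039 without the 3 and -0.089 to 0.48 with 1 left out. Cd80 to Cd86 was -0.19, -0.083 and -0.14 to 0.14 in the same order, and Cd28 and Btla to the Cd3 genes were 0.040 and 0.044 in the lower range. Leaving out 1 tumour also moved, without a change of sign, Cd28 to the Cd3 genes to -0.47, Btla to them to -0.41 and Cd86 to Csf1r to 0.21 (each without anti-PD-1 replicate 6), Icos to the Cd3 genes to 0.059 (without anti-PD-1 replicate 2) and Cd80 to Csf1r to 0.21 (without IgG2a replicate 7). Of 13 correlations, 5 passed over 16 tumours, 2 within anti-PD-1, 3 in the upper and 0 in the lower range. Pearson r turned for Ctla4 with Cd86 (-0.15 within IgG2a), Btla with Tnfrsf14 (-0.44 within IgG2a, -0.10 without the 3, -0.048 in the upper range), Cd28 with Cd80 and Cd86 (-0.065 and -0.016 without the 2 farthest) and Icos with Icosl (0.27 in the lower range). Shares of the main transcript turned when taken from reads, to -0.44 points for Cd86 and -0.50 for Tnfrsf14, and ranged from -3.93 to 7.22 and from -3.91 to 11.7 with 1 tumour left out. The cause of these turns was not tested. Btla fell under a filter of 1 CPM and gave no value there. No paired analysis was possible because the labels give no replicate number shared by the groups. Depth limits Btla most.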
